A study of Mus musculus with 18 samples.

Results

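Mouse chromosomes 8, 15 and 17 were described as a set, together with every region that a broad-domain caller placed on them in 8 ChIP-seq lists. The 3 chromosomes were chosen by name, with earlier results of these data known, so their high coverage is a description and not a test. They held 71215 of the 399440 regions of the 8 lists, or 17.8%, and 322777 regions lay on the other 16 autosomes. Of the 7 macroH2A2-GFP lists, the share on the 3 chromosomes was highest at 0h, with 7192 of 28980 regions (24.8%), and in the H2A.Z list it was 5429 of 45394 regions (12.0%). The questions were whether this higher density ran along whole chromosomes or lay in a few domains, whether it showed in the number, width or score of the regions, and what RNA the same stretches gave.

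The cells were dermal fibroblasts of newborn male 129/S6 mice, made immortal with SV40 and used at passage 20 to 30, in which both macroH2A genes were knocked out and a macroH2A2-GFP transgene was switched on by doxycycline. ChIP-seq with a GFP-binding reagent on MNase-digested native chromatin had 1 library per condition: no doxycycline (0h), and 0.5 ug/ml doxycycline for 6h, 24h or 5d, for 24h with 0.5 uM flavopiridol in the last 18 hours, and for 6h or 24h in cells kept in 5 uM GSK126 over 10 days. Every one of these libraries shares the knockout and the transgene, and the labels do not say whether the line is 1 clone. A further library mapped the variant H2A.Z in wild-type primary female dermal fibroblasts of passage 0 to 1, so it differs from the others in target, genotype, sex and culture age. Poly(A) RNA-seq of the transgenic line had 3 libraries each at 0h, 6h and 24h.

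MacroH2A is a variant of histone H2A that carries a large globular macro domain behind its histone fold, and it is best known from the inactive X chromosome and from broad stretches of repressed chromatin on autosomes. H2A.Z is a variant found mainly in nucleosomes next to active or poised promoters and enhancers. Flavopiridol inhibits the kinase that releases RNA polymerase II into elongation, and GSK126 inhibits EZH2, the enzyme that writes the Polycomb mark H3K27me3.

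Promoter sequences show the contrast between covered and uncovered ends of genes on these chromosomes. On chromosomes 8, 15 and 17, 24.5% of 4004 RefSeq promoters (GRCm38.p6, 250 bases before to 50 after the gene's start) lay wholly inside a macroH2A2-GFP region at 24h, against 10.2% of 27388 promoters on the other autosomes. In the H2A.Z list the shares were 44.5% and 44.4%. On the 3 chromosomes, promoters inside 24h regions held a median of 4 CG steps (the letters CG, the same on both strands), and those with no base inside held 12. Partly covered promoters are in neither group. Promoters inside H2A.Z regions there held a median of 21. Of all 31392 autosomal promoters in the table, 94.8% held at least 1 CG, with a median of 7 and quartiles of 3 and 21. The 8 promoters below were chosen after their values were seen, and the capitals mark each CG. The metallothioneins, small metal-binding proteins encoded side by side on chromosome 8, give covered and uncovered promoters within 1 gene cluster. The promoters of Mt3 (chr8:94152357-94152656, plus strand) and Mt4 (chr8:94136954-94137253, plus strand) lay inside regions of all 7 macroH2A2-GFP lists, while those of Mt1 (chr8:94178839-94179138, plus strand) and Mt2 (chr8:94172368-94172667, plus strand) lay inside none of the 7 and inside H2A.Z regions. The Mt4 promoter also lay wholly inside an H2A.Z region, and that of Mt3 did not.
Mt3: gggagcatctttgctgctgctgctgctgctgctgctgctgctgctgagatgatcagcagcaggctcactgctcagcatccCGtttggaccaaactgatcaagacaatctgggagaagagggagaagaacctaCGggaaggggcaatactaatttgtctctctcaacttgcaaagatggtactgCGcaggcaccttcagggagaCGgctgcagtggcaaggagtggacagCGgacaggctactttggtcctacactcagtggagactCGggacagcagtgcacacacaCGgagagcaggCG
Mt4: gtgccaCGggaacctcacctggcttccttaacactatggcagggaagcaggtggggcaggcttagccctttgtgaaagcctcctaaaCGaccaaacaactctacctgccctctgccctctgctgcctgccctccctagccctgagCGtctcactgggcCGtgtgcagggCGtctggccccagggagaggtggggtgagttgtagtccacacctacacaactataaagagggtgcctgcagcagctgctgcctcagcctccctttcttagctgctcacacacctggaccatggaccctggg
Mt1: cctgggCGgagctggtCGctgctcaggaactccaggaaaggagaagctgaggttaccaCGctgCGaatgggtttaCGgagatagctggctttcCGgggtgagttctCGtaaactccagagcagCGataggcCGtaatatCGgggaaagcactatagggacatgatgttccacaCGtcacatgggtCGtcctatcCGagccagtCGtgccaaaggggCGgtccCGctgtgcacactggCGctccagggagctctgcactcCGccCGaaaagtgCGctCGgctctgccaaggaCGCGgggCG
Mt2: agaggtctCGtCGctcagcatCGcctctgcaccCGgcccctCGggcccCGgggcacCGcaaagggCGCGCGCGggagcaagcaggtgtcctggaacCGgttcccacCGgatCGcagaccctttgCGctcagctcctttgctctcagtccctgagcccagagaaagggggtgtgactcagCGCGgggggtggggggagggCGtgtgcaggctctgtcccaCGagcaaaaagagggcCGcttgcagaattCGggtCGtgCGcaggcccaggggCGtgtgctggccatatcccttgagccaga

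On chromosome 15, Ly6g encodes a surface protein of granulocytes and Rpl37 a protein of the large ribosomal subunit, and on chromosome 17, Olfr63 encodes an olfactory receptor and H2-K1 a class I histocompatibility heavy chain. The Ly6g (chr15:75155011-75155310, plus strand) and Olfr63 (chr17:33268476-33268775, plus strand) promoters, with 1 CG each, lay inside all 7 macroH2A2-GFP lists and not inside an H2A.Z region. The Rpl37 (chr15:5116363-5116662, plus strand) and H2-K1 (chr17:34000298-34000597, minus strand, printed as the gene reads) promoters, with 23 and 14 CG, lay inside H2A.Z regions only.
Ly6g: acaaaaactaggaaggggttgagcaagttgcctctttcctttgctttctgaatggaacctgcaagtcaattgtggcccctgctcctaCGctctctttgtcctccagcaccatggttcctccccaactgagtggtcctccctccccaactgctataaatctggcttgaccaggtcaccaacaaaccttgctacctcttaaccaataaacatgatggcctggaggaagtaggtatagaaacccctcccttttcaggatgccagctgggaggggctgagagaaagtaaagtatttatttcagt
Rpl37: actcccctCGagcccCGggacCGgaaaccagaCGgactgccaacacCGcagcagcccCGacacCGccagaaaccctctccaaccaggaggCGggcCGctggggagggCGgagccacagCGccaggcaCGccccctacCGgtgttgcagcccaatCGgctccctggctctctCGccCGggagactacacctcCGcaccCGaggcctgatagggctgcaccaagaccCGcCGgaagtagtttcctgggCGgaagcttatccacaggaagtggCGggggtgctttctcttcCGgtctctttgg
Olfr63: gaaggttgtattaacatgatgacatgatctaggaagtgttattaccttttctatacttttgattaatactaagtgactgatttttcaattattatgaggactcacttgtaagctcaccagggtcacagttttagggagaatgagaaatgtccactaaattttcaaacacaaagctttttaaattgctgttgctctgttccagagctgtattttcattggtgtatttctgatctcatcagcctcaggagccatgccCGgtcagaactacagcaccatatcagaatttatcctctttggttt
H2-K1: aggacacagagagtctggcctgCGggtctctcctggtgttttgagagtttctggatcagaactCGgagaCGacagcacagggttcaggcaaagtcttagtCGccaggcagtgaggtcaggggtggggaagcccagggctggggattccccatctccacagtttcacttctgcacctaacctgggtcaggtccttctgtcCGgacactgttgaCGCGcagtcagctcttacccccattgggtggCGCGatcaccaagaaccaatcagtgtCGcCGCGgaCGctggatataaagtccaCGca

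As a check of the labels, RNA of H2afy2, the gene of the induced variant, was 9.61 to 25.3 CPM (counts scaled to a common library total, adjusted by the trimmed mean of M-values, TMM) in the 0h libraries, 805 to 833 CPM at 6h and 1713 to 1741 CPM at 24h. The 3 ranges did not overlap, and the counts do not separate the transgene from the gene's own locus on chromosome 10. RNA of H2afy, the other macroH2A gene, was 54.8 to 58.5 CPM at 0h, 56.0 to 58.2 CPM at 6h and 51.5 to 60.6 CPM at 24h. The gene counts thus do not by themselves show the knockout of H2afy, and what its counted RNA encodes was not tested. RNA libraries held 29338093 to 37793178 counts over genes. Of 10 dermal fibroblast markers, 9 had 1 CPM or more at 0h, with sums of 5962 to 6203 CPM per library. The marker sums of keratinocytes, endothelium, macrophages, and melanocytes with Schwann cells were 7.16 CPM or less in every 0h library. The read depth behind the region lists is unknown, and an input library was not analysed here. The 0h ChIP library came from cells without doxycycline, and how much tagged histone it held was not measured.

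The 3 chromosomes were the most covered autosomes in all 7 macroH2A2-GFP lists, in the order 15, 17, 8. At 0h regions covered 17.4% of chromosome 8, 27.0% of chromosome 15 and 23.0% of chromosome 17, against a median of 6.44% over the other 16 autosomes, which ran between 1.65% on chromosome 14 and 12.2% on chromosome 10. At 6h they covered 25.2%, 35.6% and 31.3% of chromosomes 8, 15 and 17, against a median of 14.0% and a highest of 21.0% on chromosome 10. At 5d the values were 25.3%, 33.5% and 27.6%, against a median of 12.4% and a highest of 22.4%. All 3 thus stood above the most covered of the other autosomes at each time. Chromosomes 8, 15 and 17 stood at 1.89, 2.67 and 2.15 times the median of the other autosomes at 24h, against 2.70, 4.20 and 3.58 times at 0h.

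The treated libraries kept the same order. With flavopiridol regions covered 27.0% of chromosome 8, 33.3% of chromosome 15 and 31.9% of chromosome 17, and without it at 24h 24.2%, 34.3% and 27.7%. With GSK126 the 24h list covered 22.3%, 31.5% and 25.9% of the 3 chromosomes, and the 6h list 24.9%, 33.3% and 31.5%. In the H2A.Z list the 3 chromosomes were not set apart, with 7.39%, 7.16% and 7.10% covered on chromosomes 8, 15 and 17, against a median of 7.87% over the others, which ran between 6.44% on chromosome 7 and 10.6% on chromosome 14. With 1 library per condition none of these differences could be tested.

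**Figure D1:**
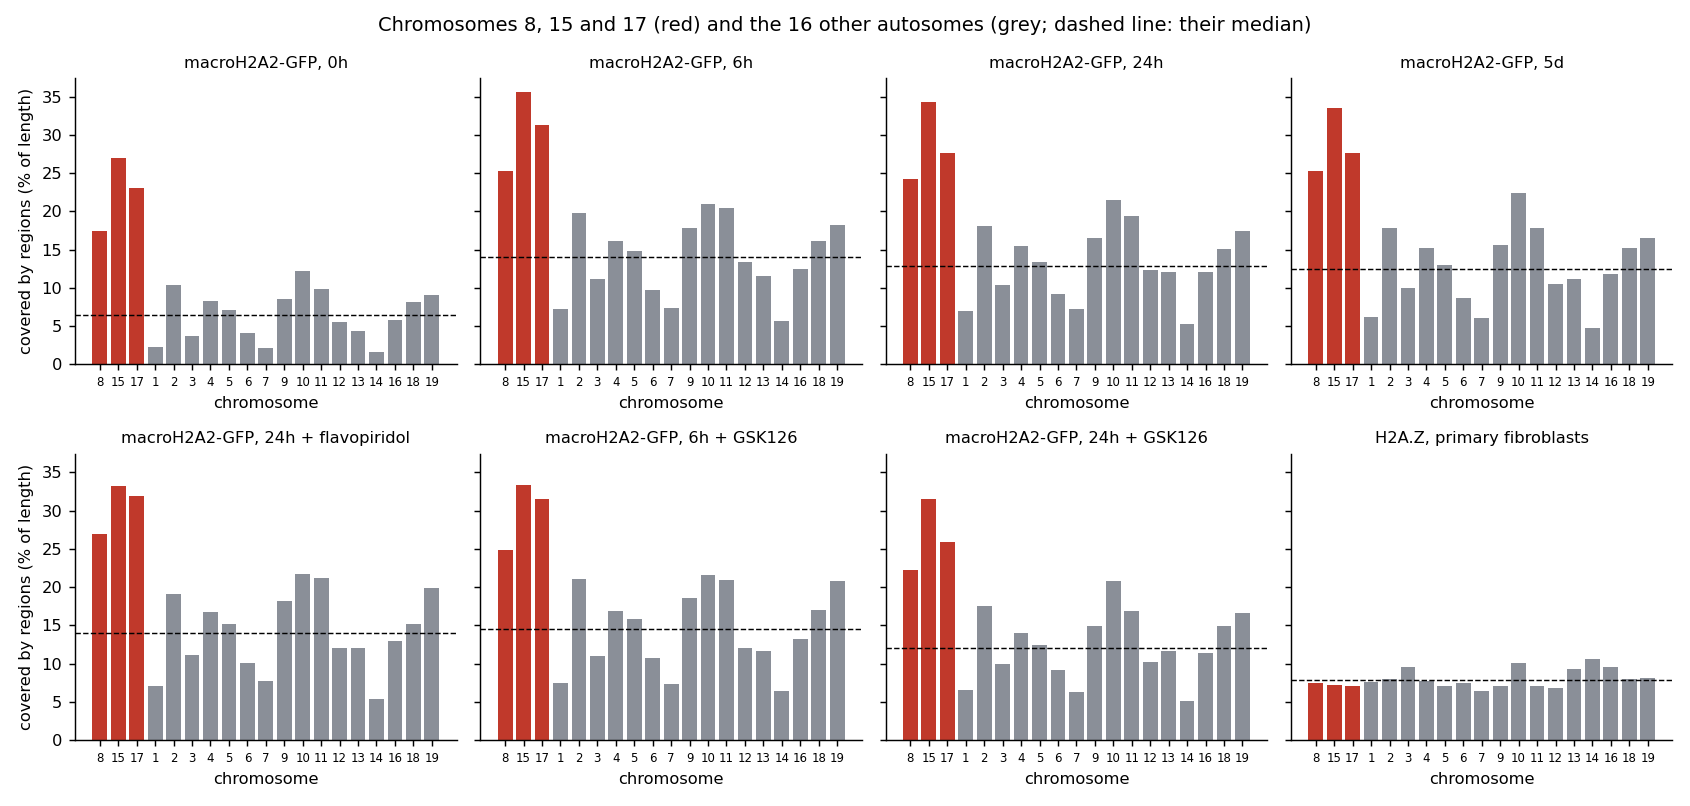
Percent of each autosome's length inside called regions, 1 panel per library, with chromosomes 8, 15 and 17 as red bars, the 16 other autosomes as grey bars and their median as a dashed line. The red bars are the 3 tallest in the 7 macroH2A2-GFP panels, at 17.4% to 27.0% at 0h against 12.2% or less for the others, and lie at 7.10% to 7.39% in the H2A.Z panel.

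The excess ran along nearly the whole of each chromosome. Cut into bins of 5 Mb, the 3 chromosomes gave 66 bins, and at 0h 62 of them (93.9%, exact Clopper-Pearson 95% interval 85.2 to 98.3, counting over bins only) were more covered than the median bin of the other autosomes. By construction that share is 50.0% for the 430 bins of the other autosomes, in this and every other list. It was 24 of 26 bins on chromosome 8, 20 of 21 on chromosome 15 and 18 of 19 on chromosome 17. Other autosomes neared or matched these shares, with 12 of 13 bins on chromosome 19 (92.3%), 88.0% on chromosome 11 and 86.5% on chromosome 2. At 6h chromosome 19 (92.3%) passed chromosomes 8 (88.5%) and 15 (90.5%). A raised share of bins was thus not particular to the 3, though the median bin of chromosome 19 was covered to only 8.50% at 0h. Above the upper quartile of the other autosomes, which 25.1% of their own bins pass, stood 50 of the 66 bins (75.8%) at 24h, against 57 (86.4%) at 0h. Between 58 and 61 of the 66 bins lay above the median in the other macroH2A2-GFP lists (87.9% to 92.4%), and 25 (37.9%, interval 26.2 to 50.7) in the H2A.Z list. Bins of 1 library share its depth and calling and are not replicates.

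The median bin at 0h was covered to 16.7% on chromosome 8, 21.9% on chromosome 15 and 23.0% on chromosome 17, against 4.9% over the other autosomes. Within the 3 chromosomes the 66 bins still spanned 1.0% to 71.7% at 24h and 0.3% to 61.4% at 0h, so a wide spread between neighbouring stretches lay on top of the raised level. The 3 most covered bins of each chromosome held 21.6% of the covered bases of chromosome 8 at 0h, 28.9% on chromosome 15 and 27.6% on chromosome 17. Without them the covered share was 15.4%, 22.6% and 19.9%, and the most covered of the other autosomes, treated the same way, had 10.0%. The difference was present in gene-poor and in gene-rich bins. At 0h the median covered share was 18.3% in 21 gene-poor bins of the 3 chromosomes (21 or fewer protein-coding genes), against 3.14% in 150 such bins elsewhere, and 23.0% in 19 gene-rich bins (45 or more), against 6.72% in 143.

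**Figure D2:**
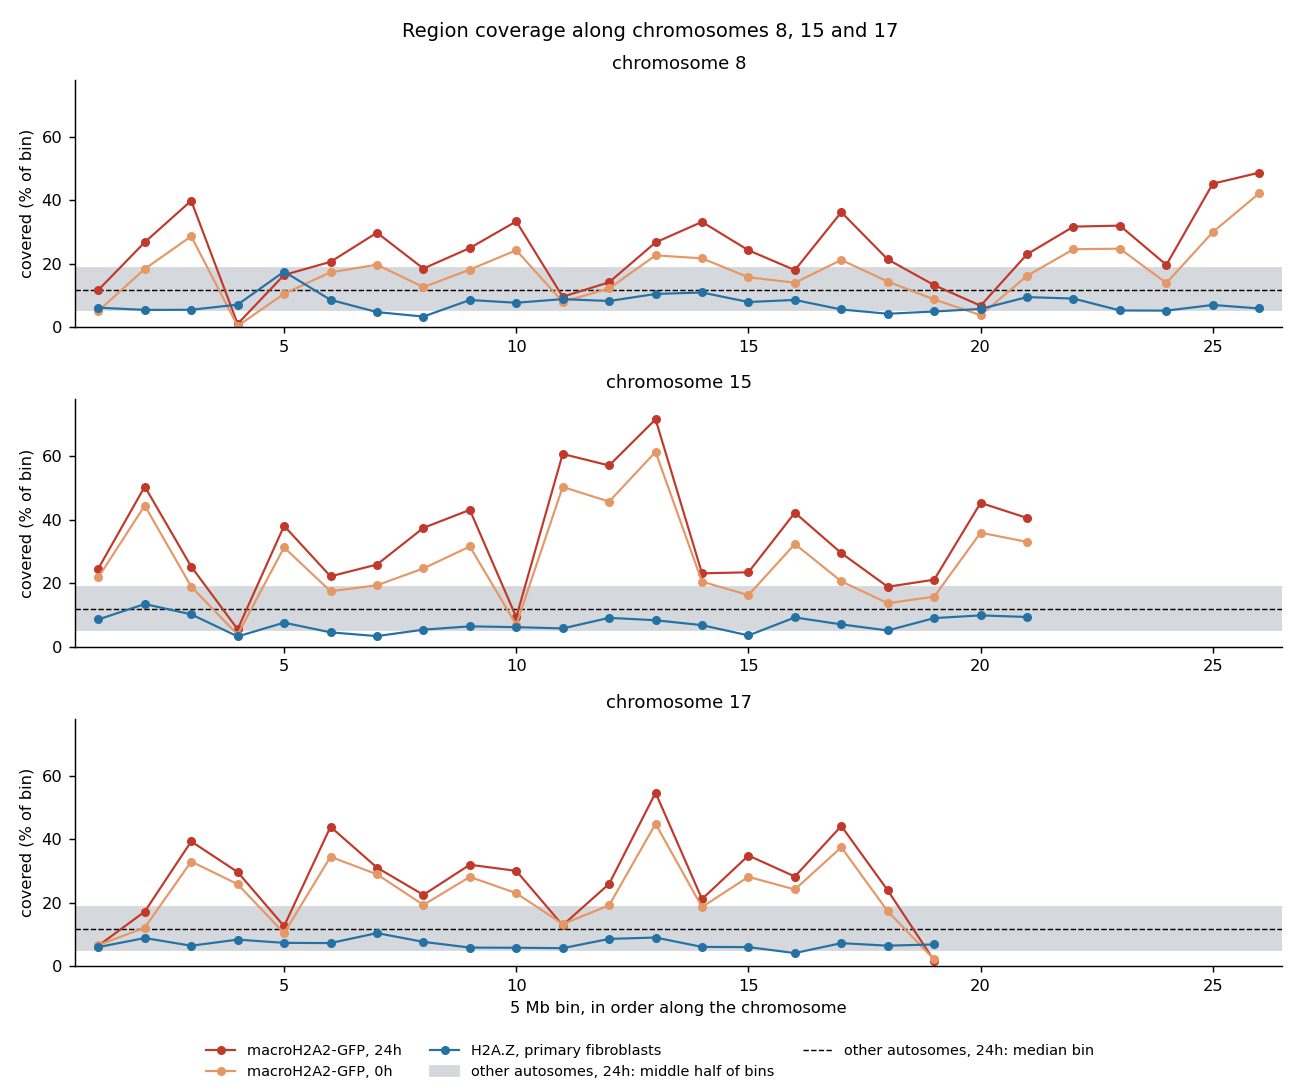
Percent of each 5 Mb bin inside called regions, in order along chromosomes 8, 15 and 17, at 24h (red), at 0h (orange) and in the H2A.Z list (blue), with the median of the other autosomes' bins at 24h as a dashed line and the range between their quartiles as a grey band. The red and orange lines run above the dashed line over most of each chromosome and drop to it or below in single bins, such as the fourth bin of chromosome 8 at 1.0% at 24h.

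Chromosome 15 held the most covered stretch. The bin at 60 to 65 Mb, with 11 protein-coding genes, among them the oncogene Myc and Asap1, a regulator of the cytoskeleton, was covered to 61.4% at 0h, 63.8% at 6h, 71.7% at 24h and 72.2% at 5d, and to 8.32% in the H2A.Z list. Its neighbours at 50 to 55 Mb, with the cohesin gene Rad21, and at 55 to 60 Mb, with the hyaluronan synthase gene Has2, were covered to 60.8% and 57.1% at 24h. On chromosome 8 the most covered bin at 24h was the last, at 125 to 129.3 Mb, where the integrin gene Itgb1 lies, with 48.7%. On chromosome 17 it was the bin at 60 to 65 Mb, with the Golgi mannosidase gene Man2a1, with 54.7%. These stretches hold transcribed genes, and their RNA at 0h was 131 ± 1.12, 747 ± 7.08 and 291 ± 2.86 CPM per Mb for chromosomes 15, 8 and 17 (SD, n = 3).

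The least covered bins were few. On chromosome 8 the bin at 15 to 20 Mb, which holds part of the defensin cluster and 5 genes at 1 CPM or more, had 1.0% at 24h, against 0.34% at 0h, and 7.08% in the H2A.Z list. On chromosome 15 the gene-poor bins at 15 to 20 Mb and 45 to 50 Mb, each with 2 protein-coding genes, had 5.48% and 9.28% at 24h. On chromosome 17 the last bin, at 90 to 94.9 Mb, had 1.72% at 24h. The RNA of these 4 bins at 0h was 31.0, 2.48, 0.44 and 11.1 CPM per Mb. The second least covered bins of chromosomes 8 and 17 had more RNA. The bin at 95 to 100 Mb of chromosome 8 had 6.74% at 24h and 211 CPM per Mb, and the first bin of chromosome 17 had 6.45% and 130 CPM per Mb. Low coverage was thus found in bins with little RNA and in bins with more.

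The widest region of each chromosome at 5d lay outside its 3 most covered bins. The bins that hold them were covered to 23.1% (chromosome 15), 31.1% (chromosome 17) and 26.7% (chromosome 8) at 24h. The second widest region of each chromosome overlaps no protein-coding gene, and that of chromosome 17 (161.8 kb) lies in its most covered bin. On chromosome 15 the region chr15:66659001-66875800, 216.8 kb wide, spans Tg, the thyroglobulin gene, and Sla, an adaptor of lymphocyte receptor signalling. It was covered to 98.5% at 0h, 96.4% at 6h, 99.3% at 24h and 100.0% with flavopiridol, and to 7.01% in the H2A.Z list. The region chr17:31856801-32035200 over Hsf2bp, a germ cell gene, was 178.4 kb wide and covered to 96.7% at 0h, 79.1% at 6h and 99.4% at 24h. On chromosome 8 the region chr8:61740201-61891800, 151.6 kb wide, overlaps Palld, which encodes an actin scaffold protein, and was covered to 89.8% at 0h, 74.7% at 6h and 98.8% at 24h. Each of the 3 had a score of 2. In the 24h list the highest score on the 3 chromosomes was 10, for the 1.0 kb region chr15:33722601-33723600, which overlaps no protein-coding gene and was absent at 0h (0% covered).

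The excess was made of wide regions with the lowest score. The score is the whole number the authors' caller gave each region, from 1 upwards, and what it is measured against is not given in the sources used here. At 24h 75.5% of the regions on chromosome 8, 77.6% on chromosome 15 and 82.1% on chromosome 17 had a score of 1, against a median of 48.0% and a highest of 59.4% over the other autosomes. At 0h it was 89.5%, 93.4% and 93.6%, against a median of 65.0%. The median width at 24h was 6.0, 6.8 and 7.4 kb, against a median of 5.2 kb and a highest of 5.4 kb. Of the regions pooled over the 3 chromosomes, 229 (2.91%) were 50 kb or wider at 24h, against 199 (0.54%) on the other autosomes. Regions were thus wider and lower in score on all 3 than on any other autosome in these lists.

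Counted per Mb, regions with a score of 2 or more were fewer on the 3 chromosomes. At 24h there were 5.79 per Mb on chromosome 8, 6.46 on chromosome 15 and 3.87 on chromosome 17, against a median of 9.28 and a lowest of 7.13 on chromosome 14. With score 1 regions left out, which was decided after the data were seen, the covered share at 24h was 9.43%, 12.1% and 8.08%, against a median of 8.07% and a highest of 11.5%. The share of bins above the other autosomes' median was then 57.6% at 24h and 36.4% at 0h. The position of chromosomes 8 and 17 above the others therefore rests on score 1 regions, while chromosome 15 stayed highest at 6h and 24h and not in the other macroH2A2-GFP lists. In the H2A.Z list the share with a score of 1 was 38.1%, 38.8% and 33.6%, against a median of 43.2%.

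The running number in the region lists skipped more values on the 3 chromosomes. At 24h 15.1% of the numbers on chromosome 8, 15.0% on chromosome 15 and 28.3% on chromosome 17 were skipped, against a median of 1.67% over the other autosomes and a highest of 4.93% on chromosome 14. At 0h it was 29.9%, 29.6% and 51.5%, against a median of 4.63% and a highest of 28.2%, and in the H2A.Z list 2.51%, 2.41% and 4.90%, against 3.20%. Among the least covered bins named above, the skipped share in the 0h list was 81.8% and 0% on chromosome 8 (15 to 20 and 95 to 100 Mb). It was 39.7% and 60.4% on chromosome 15 (15 to 20 and 45 to 50 Mb), and 83.8% and 67.1% in the last and first bins of chromosome 17. The median over the 66 bins was 37.5%. What the skipped numbers stood for is not given in the sources used here, and their part in the coverage was not tested. With the skipped numbers added back, chromosome 17 would have had 42.3 numbered regions per Mb at 0h, against a median of 11.4 and a highest of 19.1 elsewhere, so its regions were dense with and without them.

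**Figure D3:**
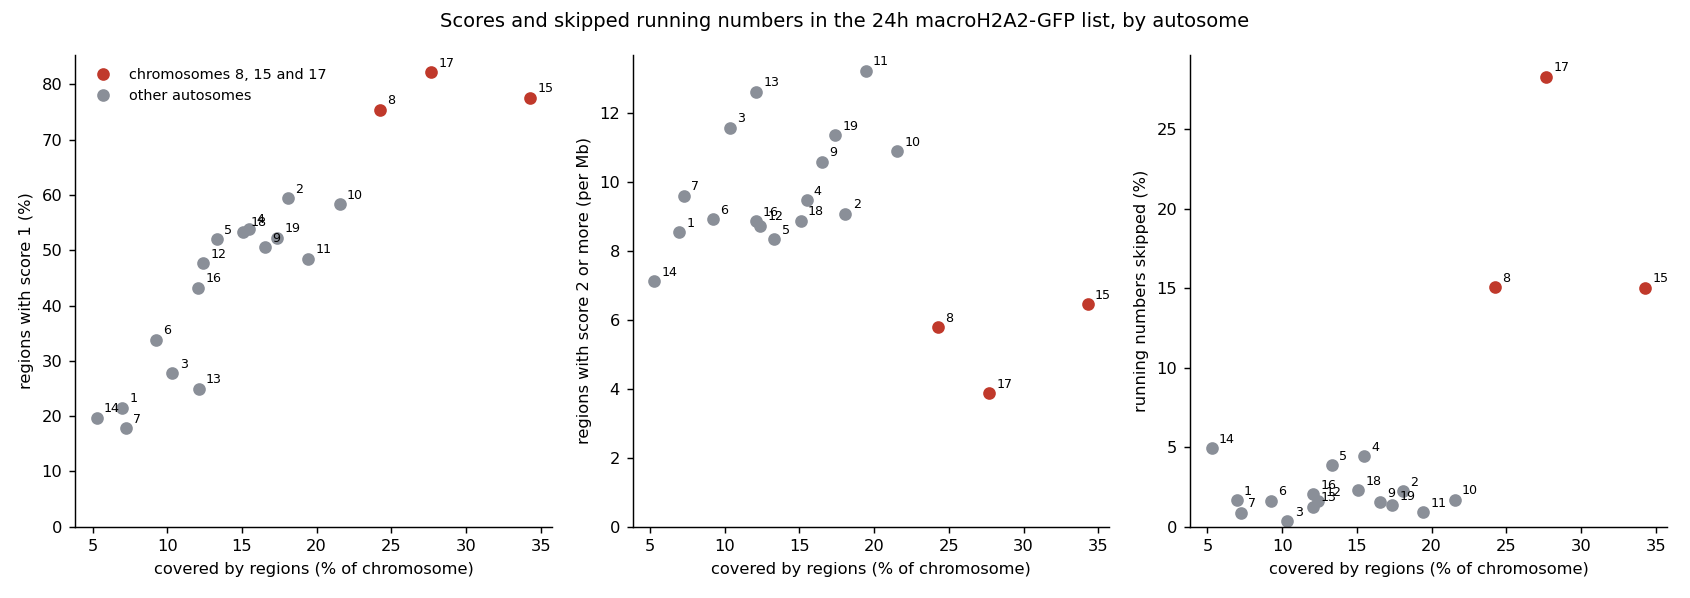
Each point is 1 autosome in the 24h macroH2A2-GFP list, with covered percent on the horizontal axis and, from left to right, the percent of regions with score 1, the number of regions with score 2 or more per Mb, and the percent of running numbers skipped. Chromosomes 8, 15 and 17 (red) stand to the right in each panel, highest for score 1 (75.5% to 82.1%) and skipped numbers (15.0% to 28.3%), and lowest for score 2 or more (3.87 to 6.46 per Mb).

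Most of what was covered on the 3 chromosomes at 24h also lay inside regions of the 0h list. That list came from cells without doxycycline, where H2afy2 RNA was 9.61 to 25.3 CPM. Of its regions on the 3 chromosomes 92.0% had a score of 1. Of the bases covered at 24h, 63.9% on chromosome 8, 70.6% on chromosome 15 and 73.1% on chromosome 17 lay inside 0h regions, against a median of 44.7% and a highest of 50.8% over the other autosomes. The 0h regions also covered more of these 3 chromosomes. Of the bases covered at 0h, 89.0%, 89.5% and 87.9% were covered at 24h, inside the other autosomes' range of 87.6% to 94.1% (median 89.7%). Regions of 0h were thus not kept more often on the 3. Bases covered at 24h and not at 0h made up 10.6%, 13.8% and 9.66% of chromosomes 8, 15 and 17, against a median of 8.11% and a highest of 12.1%. Of those covered at 6h and not at 0h, 27.7%, 28.4% and 19.6% were still covered at 24h, against 33.9% to 56.3% over the other autosomes. With flavopiridol 53.0%, 47.0% and 47.9% were covered at 24h, inside the other autosomes' range of 44.9% to 57.8%. Inside at least 1 of the 7 macroH2A2-GFP lists lay 44.8%, 56.4% and 51.5% of the 3 chromosomes, against a median of 26.2%, and inside all 7 lay 9.11%, 14.2% and 11.6%, against 3.64%.

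Expressed genes of the 3 chromosomes also gave more RNA counts at 0h. The CPM of whole chromosomes, bins and gene classes are scaled to the library total alone and were not divided by transcript length, so genes are compared by counts. The median over protein-coding genes at 1 CPM or more was 46.1 ± 0.27 CPM on chromosome 8, 53.8 ± 0.37 CPM on chromosome 15 and 47.3 ± 0.20 CPM on chromosome 17 (SD, n = 3 each). Over the other 16 autosomes these medians ran between 25.1 CPM on chromosome 7 and 46.5 CPM on chromosome 18, so chromosomes 15 and 17 ranked 1 and 2 of 19 and chromosome 8 ranked 4. The percent of protein-coding genes at 1 CPM or more was 60.5, 58.3 and 52.9, against a median of 53.8 and a highest of 60.7 on chromosome 12 over the others, so chromosome 17 lay below that median. Summed over all genes, the RNA per Mb was 461 ± 1.47, 566 ± 1.85 and 710 ± 6.69 CPM, against a highest of 762 CPM on chromosome 11. In bins, the median was 383 CPM per Mb over 66 bins, against 247 over 430, and 46 of 66 bins (69.7%) lay above the other autosomes' median, a smaller share than for coverage at 0h (62 of 66).

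Across the 19 autosomes, the covered share and the median CPM went together, with a Spearman rho of 0.84 at 24h and 0.85 at 0h. Over the 16 other autosomes alone rho was 0.74 at 24h and 0.76 at 0h, and in the H2A.Z list it was -0.09 over 19 and 0.11 over 16. The autosomes of a library share its depth and calling, and all libraries were set against the same 0h RNA, so these are descriptions. Across the 66 bins of the 3 chromosomes rho between coverage and RNA per Mb was 0.43 at 24h, against 0.50 over the 430 other bins, and 0.16 and -0.10 for H2A.Z. The number of copies of each chromosome in the line was not measured here. A higher copy number and a higher density of macroH2A2 or of RNA per copy cannot be told apart from these files.

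**Figure D4:**
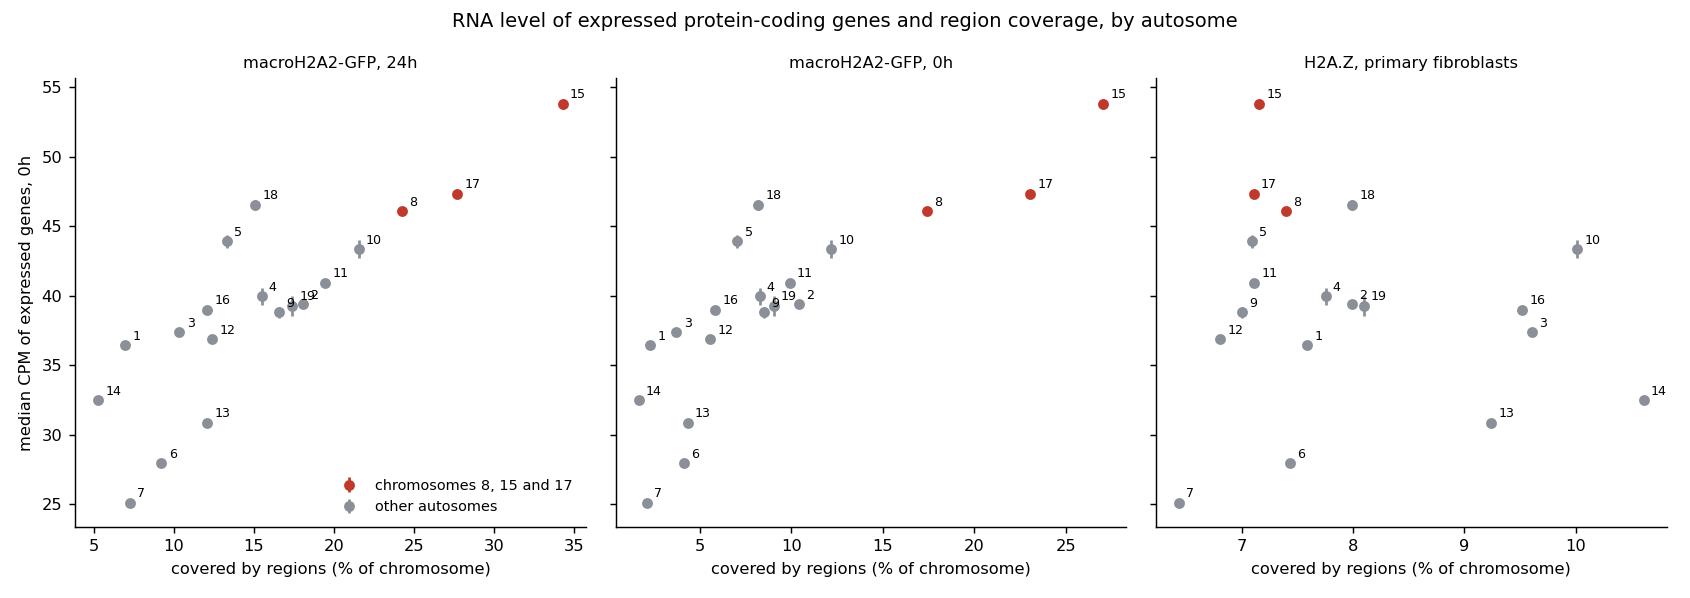
Each point is 1 autosome, with the percent of its length inside regions on the horizontal axis (24h, 0h and H2A.Z, left to right) and, on the vertical axis, the median 0h CPM of its protein-coding genes at 1 CPM or more, with bars for the SD of 3 RNA libraries. Chromosomes 8, 15 and 17 (red, 46.1 to 53.8 CPM) lie at the right upper end at 24h and 0h and at the left in the H2A.Z panel.

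In each RNA level class genes were more covered on the 3 chromosomes than on the other autosomes, in every macroH2A2-GFP list. At 0h the covered part of a gene averaged 27.9% over 784 silent genes (under 0.1 CPM) of chromosomes 8, 15 and 17, 33.8% over 191 low genes (0.1 to 1 CPM), 17.5% over 218 medium genes (1 to 10 CPM) and 3.29% over 1272 high genes (10 CPM or more). On the other autosomes the means were 5.73%, 9.55%, 4.61% and 0.60%. At 6h the silent, low, medium and high genes averaged 21.6%, 47.5%, 41.3% and 46.2% on the 3 chromosomes, and 8.74%, 20.5%, 17.7% and 15.8% on the others, so high genes stood above medium ones on the 3 chromosomes and below them elsewhere. With flavopiridol high genes were at 26.8% on the 3 chromosomes and 7.82% on the others, against 6.25% and 1.74% at 24h without it. H2A.Z covered 9.85% of high genes on the 3 chromosomes and 9.17% on the others.

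Genes covered over 80% or more of their length showed the turnover in counts. Among high genes of the 3 chromosomes they were 5 of 1272 at 0h, when 1.17% of all autosomal protein-coding genes of 3 kb or more were so covered, 228 at 6h (3.43% of all), 13 at 24h (3.77% of all) and 97 with flavopiridol (5.18% of all). These shares of all genes cover every RNA level. Within the high class it was 0.39%, 17.9%, 1.02% and 7.63% on the 3 chromosomes. Among 6882 high genes of the other autosomes it was 0.015%, 0.99%, 0.073% and 0.78%. After GSK126 the high genes so covered on the 3 chromosomes were 258 at 6h (3.63% of all) and 8 at 24h (1.99% of all). That was 20.3% and 0.63% of the class, against 2.12% and 0.015% on the other autosomes. Among silent genes of the 3 chromosomes the genes so covered were 97 of 784 at 0h, 68 at 6h, 197 at 24h and 150 at 5d (2.3% of all). Within the silent class it was 12.4%, 8.67%, 25.1% and 19.1%, against 0.82%, 1.52%, 4.37% and 2.63% on the other autosomes. H2A.Z covered 3 of the 1272 high genes and 11 of the 784 silent ones to that extent (0.941% of all).

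**Figure D5:**
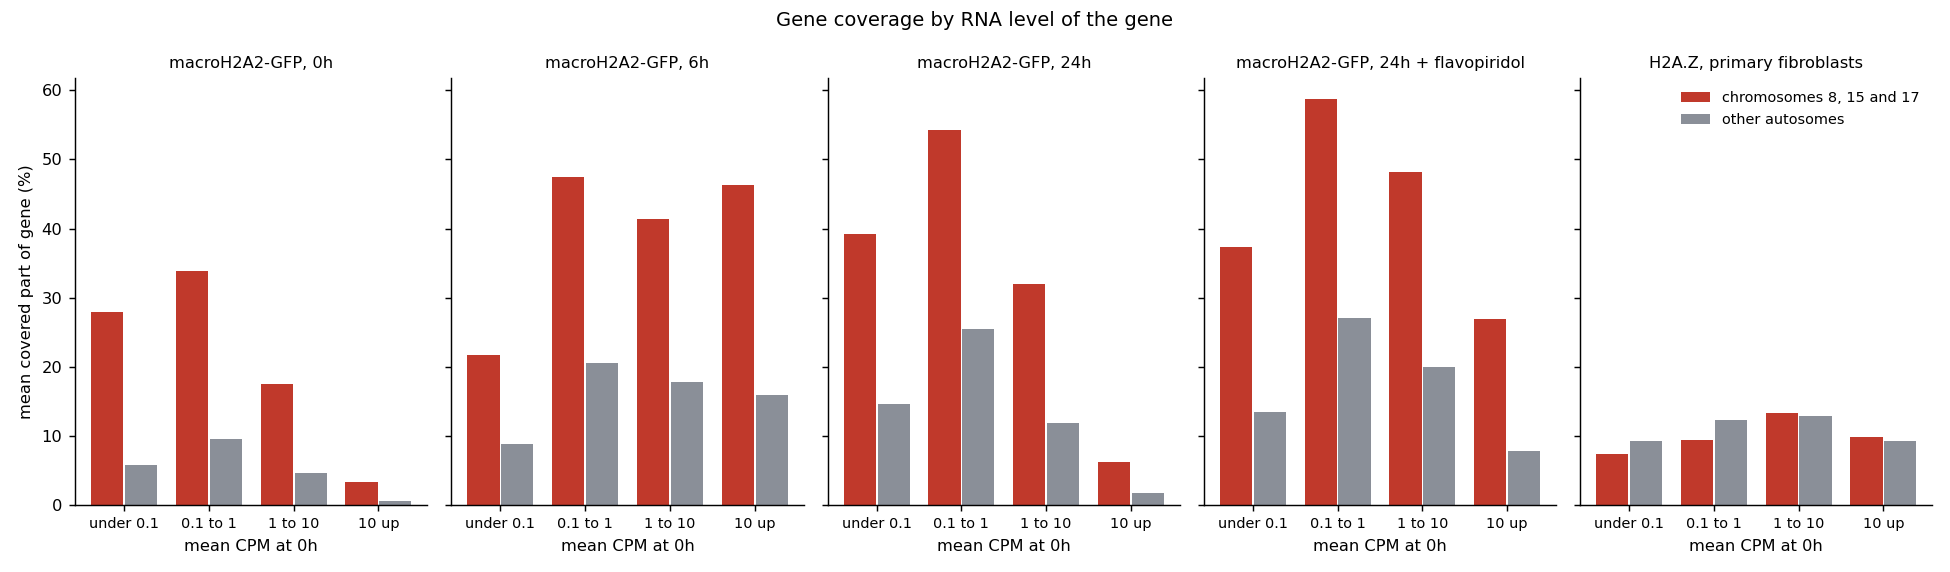
Mean percent of a gene's length inside regions, by the gene's mean CPM at 0h, for protein-coding genes at least 3 kb long on chromosomes 8, 15 and 17 (red) and on the other autosomes (grey), in 5 libraries. The red bars exceed the grey ones in every class of the 4 macroH2A2-GFP panels, and the bar for 10 CPM and more stands at 3.29% at 0h, 46.2% at 6h, 6.25% at 24h and 26.8% with flavopiridol.

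The genes with the highest counts on each chromosome had little or no coverage at 0h and 24h, and several were partly covered at 6h. Itgb1 (ENSMUSG00000025809, chr8:128685654-128733579), the integrin beta-1 subunit that fibroblasts use to grip matrix, was covered to 0% at 0h, 93.0% at 6h, 0% at 24h and 95.1% at 6h after GSK126. Its RNA was 2120, 2134 and 2083 CPM at 0h, 2947, 2932 and 2975 CPM at 6h, and 2086, 2118 and 2142 CPM at 24h. The 6h libraries stood above all others and the 0h and 24h libraries overlapped. By edgeR's quasi-likelihood test with Benjamini-Hochberg adjustment Itgb1 RNA rose at 6h against 0h (log2 change 0.48 ± 0.02 SE, adjusted p = 4.6e-16). Pabpc1, the poly(A)-binding protein gene of chromosome 15, was covered to 48.4% at 6h and 0% at 0h and 24h, and Hsp90ab1, a chaperone gene of chromosome 17, to 15.0% at 6h and 0% at both other times. Lgals1, the galectin-1 gene of chromosome 15, was covered to 1.7% at 0h and 6h and 0% at 24h.

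At 6h a larger share of tested genes was called on the 3 chromosomes than on the other autosomes together, 45.0% against 39.9%, and the difference lay in genes that fell. Of 1918 tested genes on chromosomes 8, 15 and 17, 398 rose and 466 fell at 6h against 0h, that is 20.8% and 24.3%, against 21.8% and 18.1% of 10760 genes on the other autosomes. Of all 13785 genes tested 20.8% rose and 18.2% fell, 39.0% in sum. The called share was 48.7% on chromosome 15 and 45.3% on chromosome 17, ranks 1 and 2 of 19, and 42.2% on chromosome 8, rank 6, below chromosomes 5, 10 and 19. Per chromosome 157 rose and 152 fell on chromosome 8, 118 and 142 on chromosome 15, and 123 and 172 on chromosome 17. The percent that fell, 26.6 on chromosome 15 and 26.4 on chromosome 17, ranked 1 and 2 of 19 autosomes, the highest other being 21.5. At 24h against 0h 99 rose (4.17% of all genes did) and 89 fell (2.87% of all), 9.80% in sum against 7.04%. At 24h against 6h 443 rose (17.4% of all) and 366 fell (18.8% of all), in sum 42.2% against 36.1%. The 24h counts lean on single libraries, with 60 risen without replicate 2 of 0h, 64 without replicate 1 of 0h, and 43 fallen without replicate 2 of 0h or of 24h, and 57 without replicate 3 of 24h. Changes were small, with 29 of 1918 risen and 38 fallen past 1.5-fold at 6h, beside 201 and 241 of all 13785 genes. Genes are not replicates, the 3 comparisons share libraries, and no test of the difference between chromosomes was made. Since the labels do not say that the 3 libraries of a time are separate cultures, p-values measure the spread between libraries, which may be technical. In bulk RNA, fewer cells that express a gene and less RNA per cell cannot be told apart.

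Among the 12 genes with the largest increase at 6h was Has2. Has2 (ENSMUSG00000022367, chr15:56665627-56694546), a hyaluronan synthase, had 54.1, 56.4 and 53.6 CPM at 0h, 149, 160 and 145 CPM at 6h, and 53.1, 53.1 and 54.2 CPM at 24h. All 6h libraries lay above all others, and by edgeR's quasi-likelihood test with Benjamini-Hochberg adjustment the log2 change at 6h was 1.47 ± 0.03 SE (adjusted p = 1.6e-22). Has2 was covered to 18.0% at 0h, 89.1% at 6h, 33.8% at 24h and 80.8% with flavopiridol. Tll1, a tolloid-like metalloprotease gene of chromosome 8 that acts on matrix precursors, had 47.0, 51.6 and 46.8 CPM at 0h, 96.1, 98.8 and 90.8 CPM at 6h and 43.1, 42.2 and 44.9 CPM at 24h. It was covered to 25.7%, 83.0% and 31.5% at 0h, 6h and 24h, and as for Has2, coverage and RNA were both highest at 6h among these 3 times. Has1, a second hyaluronan synthase gene, on chromosome 17, had 0.827, 0.757 and 0.685 CPM at 0h, 1.72, 1.85 and 1.98 CPM at 6h, and 0.919, 1.09 and 1.31 CPM at 24h, highest in the 6h libraries, and was covered to 15.5%, 70.3% and 15.5%. Acta1, the skeletal muscle actin gene of chromosome 8, had 4.70, 4.24 and 5.36 CPM at 0h, 11.7, 12.1 and 11.7 CPM at 6h, and 3.73, 3.95 and 3.65 CPM at 24h. Its 6h libraries were the highest, with a log2 change of 1.31 ± 0.09 SE (edgeR, Benjamini-Hochberg adjusted p = 2.6e-12), while its coverage was 1.4% at 0h and 6h and 60.2% at 24h.

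Over the 12 genes named for the largest increase at 6h, the median covered part was 16.8% at 0h, 76.7% at 6h and 34.1% at 24h. Over all high genes of the 3 chromosomes (3 kb or more) it was 0% at 0h, 46.7% at 6h and 0% at 24h. For medium genes it was 0%, 38.5% and 18.7%, and for low genes 24.2%, 47.6% and 62.8%. The 12 genes do not all belong to the high class, since Has1, Acta1 and Angptl4 had under 10 CPM at 0h. Not every gene that rose went with a change in coverage. Smoc2, which encodes a secreted calcium-binding matrix protein on chromosome 17, had 20.8, 23.4 and 20.6 CPM at 0h, 48.0, 49.0 and 50.9 CPM at 6h, and 16.6, 15.8 and 19.4 CPM at 24h, with a log2 change of 1.19 ± 0.06 SE at 6h (edgeR quasi-likelihood, Benjamini-Hochberg adjusted p = 5.2e-16). The 6h libraries stood apart, although Smoc2 was covered to 94.8% at 0h, 89.7% at 6h and 98.6% at 24h. Angptl4, a secreted inhibitor of lipoprotein lipase, was covered to 100.0% at 0h, 6h and 24h and had 7.21, 7.72 and 8.01 CPM at 0h, 13.4, 15.2 and 16.4 CPM at 6h and 9.49, 8.82 and 10.2 CPM at 24h. Both are thus examples of genes wholly or nearly wholly inside regions whose RNA was counted in every library. Vegfa, the endothelial growth factor gene, rose by 0.62 ± 0.03 SE on the log2 scale at 6h (edgeR, Benjamini-Hochberg adjusted p = 8.4e-15) and was covered to 27.2% at 6h and 0% at 0h and 24h.

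Among genes that fell at 6h, several were partly or mostly covered at every time. Tnxb (ENSMUSG00000033327, chr17:34660453-34719815), the gene of the matrix glycoprotein tenascin-X, had 4.42, 5.93 and 5.03 CPM at 0h, 2.52, 2.43 and 2.75 CPM at 6h, and 5.11, 4.84 and 5.16 CPM at 24h. The 6h libraries lay below the others, with a log2 change of -0.998 ± 0.13 SE (edgeR, Benjamini-Hochberg adjusted p = 3.2e-07), and Tnxb was covered to 85.2%, 68.0% and 96.6% at 0h, 6h and 24h. Cyp1b1, a cytochrome P450 gene of chromosome 17, had 40.7, 40.6 and 43.0 CPM at 0h, 21.0, 21.9 and 24.5 CPM at 6h, and 45.6, 43.5 and 43.6 CPM at 24h, and was covered to 64.8%, 89.4% and 77.1%. Slc1a3, a glutamate transporter gene of chromosome 15, had 18.8, 19.05 and 20.8 CPM at 0h, 11.2, 8.70 and 10.5 CPM at 6h, and 18.6, 15.6 and 15.9 CPM at 24h, and was covered to 36.9%, 44.7% and 64.5%. For each of these 3 genes the 6h libraries were the lowest. Over the 12 genes named for the largest decrease at 6h, the median covered part was 22.1% at 0h, 49.1% at 6h and 46.0% at 24h. Jund, an AP-1 transcription factor gene of chromosome 8, had 125, 124 and 111 CPM at 0h, 82.2, 73.4 and 78.3 CPM at 6h, and 90.3, 90.8 and 101 CPM at 24h, and fell at both later times (edgeR, Benjamini-Hochberg adjusted p = 6.0e-12 and 2.7e-06). It was covered to 0% at 0h and 6h and 36.9% at 24h.

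Among the 6 genes with the largest increase at 24h were Rpl37, Rps28, Atp5g2 and Gabarapl2. Rpl37 had 378, 383 and 416 CPM at 0h, 492, 473 and 498 CPM at 6h, and 530, 515 and 540 CPM at 24h, a log2 change of 0.43 ± 0.03 SE at 24h (edgeR, Benjamini-Hochberg adjusted p = 1.1e-10). Rps28, a small ribosomal subunit gene of chromosome 17, had 320, 311 and 319 CPM at 0h, 388, 356.3 and 380 CPM at 6h and 425, 400 and 442 CPM at 24h. Atp5g2, which encodes a subunit of the mitochondrial ATP synthase on chromosome 15, had 13.7, 16.7 and 19.6 CPM at 0h, 20.1, 19.2 and 23.1 CPM at 6h, and 26.8, 26.1 and 25.1 CPM at 24h, a log2 change of 0.65 ± 0.08 SE at 24h (edgeR, Benjamini-Hochberg adjusted p = 2.5e-06). In all 3 the 24h libraries lay above those of 0h, and none was covered at 0h or 24h. Gabarapl2, an autophagy gene of chromosome 8, had 23.5, 24.7 and 22.6 CPM at 0h, 25.8, 25.2 and 27.4 CPM at 6h, and 30.5, 30.4 and 29.4 CPM at 24h, highest at 24h, and was covered to 71.4% at 6h and 0% at both other times. Over the 6 genes the median covered part was 0% at 0h, 18.5% at 6h and 0% at 24h.

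RNA changes were set beside coverage, since the regions were called from other libraries than the RNA. Of 182 tested genes of the 3 chromosomes covered to 50% or more at 24h, 23 rose (12.6%) and 57 fell (31.3%) at 6h, with a median log2 change of -0.18. Of 977 uncovered genes 257 rose (26.3%) and 227 fell (23.2%), with a median of 0.01. At 24h against 6h 50 of the 182 rose (27.5%) and 22 fell (12.1%), against 210 (21.5%) and 230 (23.5%) of the 977 uncovered genes, where 17.4% of all genes tested rose and 18.8% fell. The covered genes were lower in RNA, at a median of 2.49 CPM against 62.2 CPM. Within 1 to 10 CPM, 22 of 75 covered genes fell at 6h (29.3%) and 14 rose (18.7%), against 8 of 87 uncovered ones that fell (9.20%) and 7 that rose (8.05%), so covered genes of this level were called more often in both directions. On the other autosomes 40 of 136 covered genes of this level fell (29.4%) and 11 rose (8.09%), against 112 of 979 uncovered ones that fell (11.4%) and 91 that rose (9.30%).

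The share of all RNA counts that came from each chromosome moved little. Chromosome 15 gave 5.701%, 5.705% and 5.735% of counts at 0h, 5.620%, 5.589% and 5.589% at 6h, and 5.740%, 5.697% and 5.711% at 24h. The 6h libraries lay below both other groups, by 0.114 points against 0h. Chromosome 8 gave 5.803%, 5.825% and 5.840% at 0h, 5.834%, 5.838% and 5.809% at 6h, and 5.757%, 5.731% and 5.738% at 24h, and the 24h libraries were the lowest, by 0.081 points against 0h. For these the exact two-sided permutation test gave p = 0.1, the smallest that 3 against 3 libraries allow, or 0.225 adjusted by Benjamini-Hochberg over 9 comparisons. Chromosome 17 gave 6.530%, 6.589% and 6.466% at 0h, 6.320%, 6.306% and 6.770% at 6h, and 6.424%, 6.720% and 6.823% at 24h, and the groups overlapped. Its highest libraries were also those in which Gm42418, a gene of chromosome 17 that overlaps ribosomal RNA sequence, took the most counts, with 0.914% in replicate 3 of 6h and 0.842% in replicate 3 of 24h, against 0.428% to 0.564% at 0h. In the other 6h libraries Gm42418 took 0.421% and 0.424%, below its 0h values, and in the other 24h libraries 0.410% and 0.731%. Its part in the chromosome's share at 6h was not tested, so the overlap of the groups cannot be read apart from this gene. Without the 10 genes of highest count the 24h difference of 0.128 points changed to -0.028.

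Gene families of the 3 chromosomes were counted as whole groups, chosen by symbol. On chromosome 8 none of 53 defensin genes, which encode antimicrobial peptides, was touched by a 24h region, and none of the 52 with a row in the count tables reached 1 CPM at 0h. None of the 19 carboxylesterase genes reached 1 CPM either, and 2 were touched. Of 258 silent genes of 3 kb or more on chromosome 8, 39.1% had no coverage at 24h and 20.2% were covered to 80% or more. In other families with little RNA some members were covered. Of 24 keratin genes on chromosome 15, the filament genes of epithelia, 10 were covered to 80% or more at 24h, Krt7, Krt8 and Krt18 among them at 100%, while Krt5 and Krt2 had 0% (Krt8, Krt5 and Krt2 were chosen after their values were seen). Of 12 Apol genes, which encode apolipoproteins L, the median covered part was 68.1% at 24h, against 51.9% at 0h. Of 50 olfactory receptor genes on chromosome 17, 10 were covered to 80% or more at 0h, 16 at 24h and 20 at 5d, and 0, 1 and 2 of 46 vomeronasal receptor genes. Of silent genes of 3 kb or more on chromosome 17 16.4%, 26.9% and 21.3% were so covered at these times. Of all autosomal protein-coding genes of 3 kb or more it was 1.17%, 3.77% and 2.3%. The family counts have no length limit, and a short gene is more easily covered to 80%, so these sets are not alike. For chromosome 15, with the keratins, the share of silent genes of 3 kb or more at 24h was 28.5%. Over these 6 families the 24h median ran between 0%, for defensin, carboxylesterase, olfactory and vomeronasal receptor genes, and 68.1% for the Apol genes, with 46.9% for the keratins.

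In the metallothionein cluster Mt3 and Mt4, at 0.060 and 0.151 CPM at 0h, were covered over their full length at 0h, 24h and with flavopiridol, and Mt1, at 119 CPM, at none of the 3. Mt2 was covered to 17.6% at 0h, 17.6% at 6h, 0% at 24h and 17.6% with flavopiridol. H2A.Z covered 100% of Mt1 and Mt2, 65.5% of Mt4 and 0% of Mt3. Mt2 RNA was 67.6, 66.5 and 62.2 CPM at 0h, 81.0, 79.2 and 80.7 CPM at 6h, and 74.7, 74.1 and 75.4 CPM at 24h, with the 6h libraries highest and the 0h libraries lowest.

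Groups with expressed members moved as follows at 6h, when the median log2 change of all 13785 genes was 0.01, 20.8% of them rose and 18.2% fell. At 24h against 6h 17.4% of them rose and 18.8% fell, and at 24h against 0h 4.17% rose and 2.87% fell. The families are small, and their counts were not tested against these shares. Of 35 H2 genes, which encode class I and class II histocompatibility chains, 9 were tested, 5 fell and none rose, with a median of -0.28, and at 24h against 6h 5 rose. H2-M3 was at 23.3, 23.8 and 24.1 CPM at 0h, 17.1, 15.9 and 17.9 CPM at 6h, and 24.1, 22.8 and 25.4 CPM at 24h, lowest in the 6h libraries, and was covered to 0%, 25.5% and 11.4%. Of 8 tested Hoxc genes, which pattern the body axis, 3 fell and none rose, with a median of -0.17. Hoxc9 had 58.1, 51.9 and 53.8 CPM at 0h, 40.3, 38.9 and 42.2 CPM at 6h, and 51.4, 49.0 and 51.6 CPM at 24h, lowest at 6h and covered to 0% in all 3 lists. Other Hoxc genes were covered. Of the 9, 4 were touched by regions at 0h, 6 at 6h and 4 at 24h, with median covered parts of 0%, 47.6% and 0%. Over high genes of 3 kb or more on chromosome 15 the medians were 0%, 50.0% and 0%. Of 2 tested Iroquois genes, transcription factors of chromosome 8, Irx5 fell at 6h and at 24h, with 29.4, 28.3 and 27.9 CPM at 0h, 23.1, 22.4 and 22.0 CPM at 6h, and 24.7, 21.6 and 23.6 CPM at 24h, and no Iroquois gene was touched by a macroH2A2-GFP region at these times. Of 3 tested Apol genes 1 fell, and of 3 tested Cyp4f genes and 1 tested Cyp2d gene, both cytochrome P450 families, none was called. Of 3 tested Ly6 genes 2 fell, among them Ly6c1, at 11.3, 11.4 and 12.4 CPM at 0h, 6.58, 6.99 and 8.71 CPM at 6h and 11.7, 10.9 and 10.4 CPM at 24h. H2 and Ly6 genes have near-identical copies, so reads could be split between them or left uncounted. Of 44 tested zinc finger genes on chromosome 17, 3 rose and 4 fell at 6h, with a median of 0.05. They were covered to 80% or more in 13 of 46 cases at 6h, 19 at 6h after GSK126, 4 with flavopiridol, and none at 0h, 24h or 5d. Of the 46, 43 had 1 CPM or more at 0h. Of high genes of 3 kb or more on chromosome 17, 23.7%, 27.1% and 8.72% were so covered in the same 3 lists. At 0h, 24h and 5d it was 0.73%, 1.69% and 0.24%. Of medium genes there it was 18.8%, 12.9% and 31.8%, and 10.6%, 18.8% and 9.41%. At 24h against 0h 4 of the 44 fell and none rose, and at 24h against 6h 10 fell and 1 rose.

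Cadherins of chromosome 8, the cell adhesion receptors, did not move as one. Cdh11, the mesenchymal cadherin of fibroblasts, rose to 203, 203 and 208 CPM at 6h, against 180, 179 and 181 CPM at 0h, and was covered to 50.7% at 6h and 0% at 0h. Cdh3 had 46.3, 47.7 and 48.3 CPM at 6h, against 59.1, 60.1 and 60.3 CPM at 0h, and was covered to 89.7% at 6h and 38.2% at 0h. In both genes the libraries did not overlap (edgeR, Benjamini-Hochberg adjusted p = 1.4e-06 for Cdh11 and 8.3e-09 for Cdh3). Myc had 145, 150 and 145 CPM at 0h, 158, 157 and 148 CPM at 6h, and 143, 134 and 143 CPM at 24h, and did not pass the test at 6h (edgeR, Benjamini-Hochberg adjusted p = 0.053). It was covered to 27.1% at 6h and 0% at 0h and 24h, inside the most covered bin of chromosome 15. Runx2, a transcription factor gene of bone and cartilage on chromosome 17, had 89.6, 83.3 and 89.4 CPM at 0h, 88.3, 97.4 and 95.1 CPM at 6h, and 92.0, 89.8 and 86.1 CPM at 24h, and was called as risen at 6h although its libraries overlapped (log2 change 0.10 ± 0.04 SE, edgeR, Benjamini-Hochberg adjusted p = 0.037). It was covered to 19.3% at 0h, 91.3% at 6h, 29.7% at 24h and 88.1% with flavopiridol.

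Some of the longest genes covered to 80% or more at 24h had little or no RNA at 0h. Dlgap2, a gene of the synapse on chromosome 8 of 758 kb, was covered to 67.0% at 0h, 82.6% at 24h and 84.6% at 5d at 0.029 CPM. Adcy8, an adenylyl cyclase gene on chromosome 15, was covered to 54.5%, 87.8% and 90.4% at 0.040 CPM. Others were transcribed. Crispld2, a secreted protein gene on chromosome 8, had 4.53, 5.30 and 5.86 CPM at 0h and was covered to 93.4% at 0h, 97.3% at 6h and 100.0% at 24h. Msln, the mesothelin gene of chromosome 17, had 45.2, 43.1 and 42.7 CPM at 0h, 30.0, 32.2 and 29.0 CPM at 6h, and 46.3, 47.5 and 46.3 CPM at 24h, lowest at 6h, and was covered to 55.3%, 79.2% and 100.0%.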

How the data were processed

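The deposited region lists (window 200 bases, gap 800, caller threshold 0.01) hold no header. Each region has a start, an end, a running number and a score, a whole number as the authors deposited it. The running number is used as an identifier of the deposited regions (unit other). Per the submitters' processing notes ChIP reads were aligned with Bowtie 1.1.2 to GRCm38 (mm10), broad regions were called with SICER 1.1, and STAR 2.5.2b was used for RNA. The RNA values are raw counts per gene as the authors deposited them, and the count column of the sequenced strand (column 4) was used. Settings of the aligners are not given in the sources used here.

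Covered bases were counted per chromosome (between the first and last region of any list), per 5 Mb bin (bins with 20% or more of that length) and per gene of RefSeq GRCm38.p6, over the full gene length. Of 48440 genes in the count tables, 48058 had a symbol and 33129 were placed on an autosome by RefSeq. Gene classes and the shares of all autosomal protein-coding genes covered to 80% or more used protein-coding genes of 3 kb or more. Gene families had no length limit. RNA was scaled to CPM and fitted over all 9 libraries with edgeR 4.0.16 (filterByExpr, TMM, glmQLFit, glmQLFTest, time only) in R 4.3.3, over 13785 genes, called at a Benjamini-Hochberg adjusted p under 0.05. The code was tested on simulated data. Of the reads, 21.2% to 23.1% fell to no single gene. With 1 ChIP library per condition no test was made there. Named genes were the 4 of highest CPM per chromosome, those called with the largest change without overlap between libraries, the longest and the highest in CPM among genes covered to 80% or more at 24h, and leading members of gene families. The members, lists and rules were chosen with earlier results of these data known. Alternatives were other bin lengths, score and width limits, left-out bins, genes and libraries, other counts, DESeq2 1.42.0 and a replicate block.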

Additional observations from a re-analysis of the deposited data

How the results depend on the processing

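Leaving out regions with a score of 1, an alternative chosen after seeing the data, moved the coverage results most. The share of the 66 bins above the other autosomes' median was then 36.4% at 0h, 65.2% at 6h, 57.6% at 24h, 60.6% at 5d, 57.6% with flavopiridol, and 62.1% and 59.1% at 6h and 24h after GSK126. The covered share of the 3 chromosomes together was then 1.72%, 9.50%, 9.88%, 7.71%, 10.5%, 9.58% and 8.26% in the same order, and 3.19% for H2A.Z, against 22.1%, 30.2%, 28.4%, 28.6%, 30.4%, 29.5%, 26.2% and 7.24% with all regions. A limit at each list's median score gave the same values where that median is 2. Without the 3 most covered bins of each chromosome, also chosen after seeing the data, the covered share was 18.9%, 26.52%, 24.6%, 24.8%, 26.0%, 25.9%, 22.7% and 6.59%. In the list called at 5d with larger settings (window 1000, gap 4000) it was 37.1%. With bins of 2 Mb, the share of bins above the median was 85.2% at 0h, 77.2% with flavopiridol and 77.8% at 6h after GSK126, and by regions per Mb it was 74.2% at 24h and 80.3% at 6h after GSK126. The median score per kb of regions on the 3 chromosomes was 0.161 at 0h, 0.217 at 6h, 0.167 at 24h, 0.179 at 5d, 0.156 with flavopiridol, 0.263 and 0.179 at 6h and 24h after GSK126 and 0.625 for H2A.Z. Outside annotated genes it was 0.167, 0.256, 0.179, 0.192, 0.172, 0.333, 0.185 and 0.25. Over regions of 2 kb or more it was 0.192 at 6h, 0.159 at 24h, 0.167 at 5d, 0.227 and 0.167 after GSK126, and 0.417 for H2A.Z.

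The RNA of the median bin, 383.1 CPM per Mb, was 391 with unstranded counts, 382.7 over protein-coding genes, 275 without the top gene of each bin and 284 in bins of 2 Mb, and 381.4 to 383.1 without 1 library. Of differences in RNA share, chromosome 17 at 24h reversed with unstranded counts (-0.026 points) and without the 10 genes of highest count (-0.028), and the cause was not tested. Without 1 library, values ran from -0.00568 to 0.0133 points for chromosome 8 at 6h, -0.00952 to 0.0131 for chromosome 15 at 24h and -0.215 to 0.0165 for chromosome 17 at 6h. Without 1 library, 60 to 102 genes rose and 43 to 100 fell at 24h.

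Same-numbered RNA libraries did not deviate together (correlations of -0.0183 to 0.039), so the numbers do not pair the samples. With a replicate block 402 genes rose and 469 fell at 6h, 100 and 93 at 24h, and 448 and 369 at 24h against 6h. Of 127 calls of named genes, 28 were lost under at least 1 alternative, 26 of them without 1 library, and none reversed. With 1 library per ChIP condition and unknown depth, region differences have no replicate check.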
